A study of Homo sapiens with 4 samples.

Results

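The integrated stress response and the unfolded protein response were described here through 42 genes, chosen by name as sensors, transcription factors, ATF4 pathway genes, serine synthesis enzymes and endoplasmic reticulum (ER) chaperones. All 42 were found among the 28307 gene symbols of the 4 libraries, and all 42 passed the filter on low counts that left 15708 tested genes. The cells were excitatory neurons of the i3N-WTC11 line, a single human induced pluripotent stem cell line, carrying dCas9-KRAB, a nuclease-dead Cas9 joined to a repressor domain, under a CAG promoter at CLYBL in both groups. At an age of 2 weeks they received lentivirus from lentiGuide-puro at a multiplicity of infection near 3, then puromycin at 0.5 μg/mL for 4 days, and RNA was taken 7 days after the virus. The CRISPRi group (2 libraries) carried guides against a MIR-family transposable element on chromosome 11, which the design text places at 47605296 to 47605575 and the title at 47608036 to 47608220. No target gene is named in the labels, so none was checked here. The control group (2 libraries) carried the empty vector, and the sources used here do not tell which guide went into which CRISPRi library.

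The integrated stress response lowers general translation when a kinase phosphorylates the translation factor eIF2alpha, while the transcription factor ATF4 is translated more and turns on genes for amino acid supply and stress recovery. The unfolded protein response starts in the ER, where IRE1 (ERN1), PERK (EIF2AK3) and ATF6 sense misfolded proteins and raise chaperones, and PERK links both responses. Much of this signalling runs through translation, phosphorylation, proteolysis and the splicing of XBP1 mRNA, none of which a gene-level count shows.

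The libraries differed greatly in depth. CRISPRi replicates 1 and 2 and control replicate 2 held 44839748, 41560282 and 39325038 counts and are called the deep libraries, whereas control replicate 1 held 944993. In control replicate 1, 1 count equals 1.06 CPM (counts scaled so that the genes of each library sum to the same total), and exact Poisson 95% intervals are given for its values. These intervals cover counting error only. Pan-neuronal markers (10 listed) summed to 16070 CPM in control replicate 1 and 18060 to 18910 CPM in the deep libraries. Its counting interval lay below all deep libraries for 6 of the 10, beside 5.7% of tested genes. The median log2 fold change of these markers in CRISPRi against it was 0.23, beside 0.09 over all tested genes. The 10 dividing-cell markers summed to 447 CPM there and to 81.0 to 89.2 CPM in the deep libraries. The counting interval lay above all deep libraries for 10 of 10, beside 9.54% of tested genes. Of 5 pluripotency markers only LIN28A was above 0.31 CPM in any library (13.8 CPM in control replicate 1, 19.7 to 21 CPM in the deep ones), and NANOG had 0 or 1 counts. The 5 microglial markers summed to at most 0.268 CPM, with AIF1, P2RY12 and TREM2 at 0 counts and CX3CR1 and CSF1R at 0 to 8. The 6 astrocyte markers summed to 175 and 174 CPM with CRISPRi, whereas the controls stood at 143 (replicate 1) and 89.5 CPM (replicate 2). Nearly all of this was SLC1A2, which was called higher in CRISPRi against control replicate 2 (log2 fold change 0.97, adjusted p = 0.000481) and not in the fit of all libraries, while GFAP had 0 to 4 counts. The 7 mesenchymal markers summed to 67.7 to 86.3 CPM, with COL1A1 at 24.3 to 32.5 CPM. TAGLN had a log2 fold change of -1.01 (unadjusted p = 0.00495, adjusted p = 1, edgeR). Among the 7 it was the only 1 below 0 in the fit of all libraries, and their median was 0.14. The highest was DCN at 2.19, from 0 to 18 counts per library. The part of these other cell types in the results was not tested. In bulk RNA, fewer cells of a type and less RNA per cell cannot be told apart.

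Promoter sequences were examined because the chaperone branch is known for shared ER stress response elements and the ATF4 branch for C/EBP-ATF response elements, and the counts give each gene's level beside them. RefSeq promoters (GRCh38.p14) were matched by symbol for 37 of the 42 genes; EIF2AK1, PSPH, SHMT2, SLC7A11 and PDIA3 were not in the table. The 250 bases upstream of every listed start were searched on both strands. The 42 genes were chosen by name as known genes of these responses. A motif share above that of the table could therefore be foreseen, here and below, and is not a finding of these data. The ER stress response element (CCAAT, then 9 bases of any kind, then CCACG) occurred in 7 of the 37 genes (18.9%) and in 25 of 27305 genes of the table (0.0916%). The 7 were CALR, CANX, CRELD2, HSP90B1, HSPA5, PDIA6 and XBP1. Of these, the genes with the element at their outermost start are shown with 30 flanking bases where the window allows, as transcribed, with the element in capitals; CANX and PDIA6 carried it only at an inner start.
HSPA5, chr9:125241361-125241439, minus strand: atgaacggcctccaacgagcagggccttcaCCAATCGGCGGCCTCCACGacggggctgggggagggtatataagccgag
HSP90B1, chr12:103930186-103930369, plus strand: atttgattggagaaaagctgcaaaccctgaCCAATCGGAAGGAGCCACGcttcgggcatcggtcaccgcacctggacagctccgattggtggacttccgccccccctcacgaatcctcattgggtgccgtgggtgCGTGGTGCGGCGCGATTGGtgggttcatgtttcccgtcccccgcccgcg
CALR, chr19:12938359-12938432, plus strand: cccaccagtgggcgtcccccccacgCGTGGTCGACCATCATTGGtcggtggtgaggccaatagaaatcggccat
CRELD2, chr22:49918524-49918602, plus strand: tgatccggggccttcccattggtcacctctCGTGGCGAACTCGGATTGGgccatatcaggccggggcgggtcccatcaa
XBP1, chr22:28800573-28800651, minus strand: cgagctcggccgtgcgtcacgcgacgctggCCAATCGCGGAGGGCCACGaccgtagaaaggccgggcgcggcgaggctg

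The element read as transcribed in HSPA5 and XBP1, on the other strand in CALR and CRELD2, and once each way in HSP90B1. Its nearest base lay 48 bp upstream of the HSPA5 start and 34 bp upstream of the XBP1 start. The shorter ER stress response element II (ATTGG, 1 base of any kind, CCACG) occurred in HERPUD1, HYOU1 and SDF2L1 (3 of 37, against 18 of 27305, or 0.0659%). In HYOU1 it occurred at a pair of places, and the outer copy overlapped the only unfolded protein response element found, TGACGTGG, which 0.78% of genes in the table carry. The C/EBP-ATF response element, TGATGNAA, occurred in ASNS, ATF3, CEBPG, CHAC1, HERPUD1 and PPP1R15B (6 of 37, or 16.2%, against 3.89% of genes). Windows of HYOU1 and HERPUD1, each with 2 kinds of motif, and of the ATF4 pathway genes ASNS, ATF3 and CHAC1 follow, with the motifs in capitals.
HYOU1, chr11:119057244-119057423, minus strand: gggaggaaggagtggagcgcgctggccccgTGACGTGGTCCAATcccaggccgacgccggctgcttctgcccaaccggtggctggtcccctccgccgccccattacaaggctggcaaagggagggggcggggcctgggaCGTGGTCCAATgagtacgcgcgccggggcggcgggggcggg
HERPUD1, chr16:56931936-56932065, plus strand: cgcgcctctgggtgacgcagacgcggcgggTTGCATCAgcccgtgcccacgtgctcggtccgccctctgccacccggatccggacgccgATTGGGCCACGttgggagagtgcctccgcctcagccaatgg
ASNS, chr7:97872439-97872506, minus strand: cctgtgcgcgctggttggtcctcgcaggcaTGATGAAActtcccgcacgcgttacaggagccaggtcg
ATF3, chr1:212565186-212565253, plus strand: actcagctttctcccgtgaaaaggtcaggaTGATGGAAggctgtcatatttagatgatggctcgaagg
CHAC1, chr15:40953232-40953299, plus strand: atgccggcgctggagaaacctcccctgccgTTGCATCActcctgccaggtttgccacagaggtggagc

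A match describes letters only, and no match says only that these letters are not in this window. No factor's binding was measured.

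No member was called in the comparison of 2 CRISPRi with 2 control libraries. In the quasi-likelihood fit of edgeR, with p-values adjusted by Benjamini-Hochberg over all tested genes, 0 of 42 were higher and 0 lower, against 0% and 0.0255% of all tested genes, and the adjusted p was 1 for each member. None of the 42 had an unadjusted p under 0.05, which 0.547% of tested genes had in the higher and 0.414% in the lower direction. DESeq2 and limma-voom also called 0. The 95% confidence interval of the fold change excluded both a halving and a doubling for 36 of 42 members. The median log2 fold change of the members was -0.08, beside 0.01 over all tested genes, and 30 of 42 (71.4%) were below 0, beside 47.3% of tested genes. For 17 members (40.5%) both CRISPRi libraries lay below both controls in CPM, as they did for 16.5% of tested genes. Some gaps between CRISPRi replicate 2 and control replicate 2 were very narrow, as in PSAT1 (25.77 against 25.81 CPM) and ATF6B (80.34 against 80.48 CPM). For 4 members (9.52%), ASNS, CEBPG, EIF2AK4 and TRIB3, both CRISPRi libraries lay above both controls, beside 17.8% of tested genes.

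The 2 controls gave different answers. Against control replicate 2 alone, 0 of 42 members were called, where 0.437% of tested genes were called higher and 0.222% lower. The median of the members was then -0.02 (all tested genes -0.0005), 25 of 42 were below 0 (50.1% of tested genes), and 38 of 42 lay within 1.2-fold of the control in CPM. Against control replicate 1 alone, 6 of 42 members (14.3%) were called lower and 0 higher, where 4.97% of tested genes were called lower and 3.61% higher. The median was -0.15 (0.09 over the tested genes), and 29 of 42 were below 0 (41.4% of tested genes). The 6 were ATF3, ATF4, XBP1, PHGDH, PSAT1 and SLC3A2, which all belong to the transcription factors, the serine enzymes and the amino acid transporters. Each such comparison leaves 1 control library, whose spread is assumed to be that of the CRISPRi pair, so it compares CRISPRi with that library and not with the control condition.

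**Figure D1:**
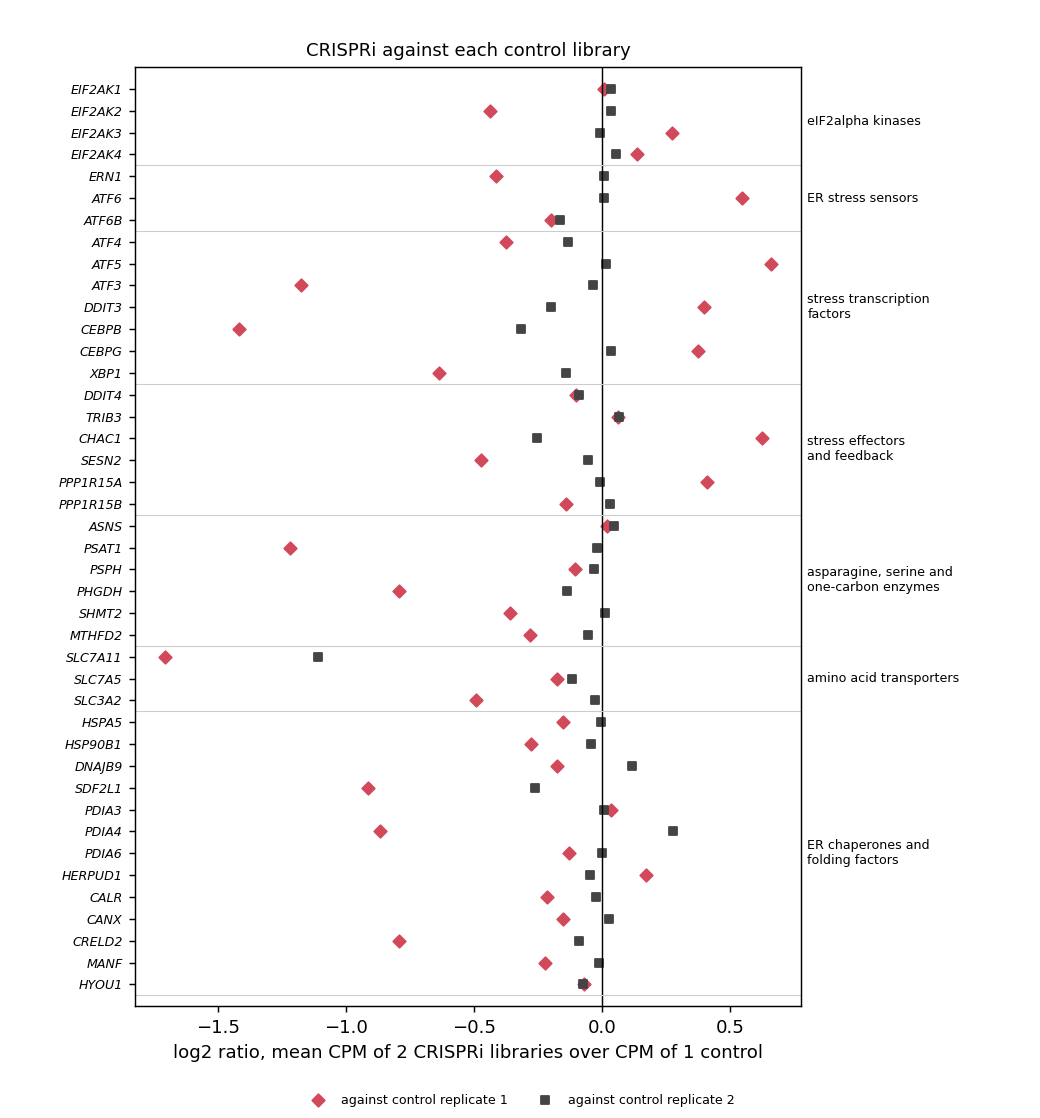
Log2 ratio of the mean CPM of the 2 CRISPRi libraries to the CPM of control replicate 1 (red diamonds) or control replicate 2 (dark squares), 1 row per gene, grouped by branch, 0 marked by the line. The squares lie close to 0 apart from SLC7A11 at -1.11, while the diamonds spread from -1.71 to 0.66.

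The counting interval of control replicate 1 lay above all 3 deep libraries for 13 of 42 members (31%), as it did for 9.54% of tested genes, and below them for 2 (4.76%), ATF6 and CEBPG, beside 5.7% of tested genes. The 13 were EIF2AK2, ATF4, ATF3, CEBPB, XBP1, PSAT1, PHGDH, SHMT2, SLC3A2, HSP90B1, PDIA4, CALR and CRELD2. The deep libraries lay close together: the highest was within 1.2-fold of the lowest for 35 of 42 members, and the median ratio of highest to lowest was 1.07 (1.09 over all tested genes). The dividing-cell markers were high in the same single library, and their part in these values was not tested.

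**Figure D2:**
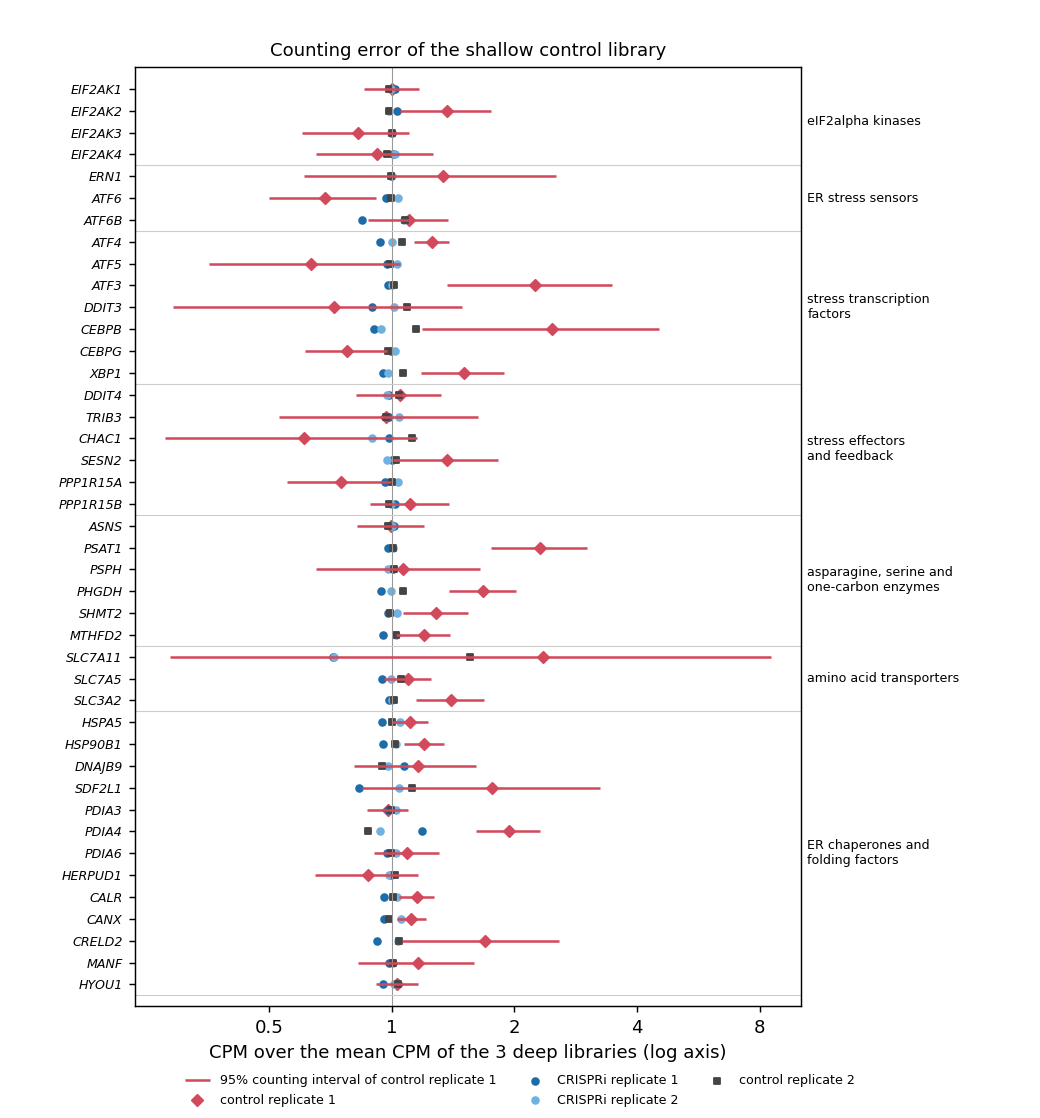
CPM of each gene divided by its mean over the 3 deep libraries, on a log axis. The red bar is the exact Poisson 95% interval of control replicate 1, the diamond its value, and the other symbols are the deep libraries, which lie within 1.2-fold of each other for 35 of 42 genes and farthest apart for SLC7A11 (2.16-fold). The red bar stands clear above them for 13 genes, PSAT1 (59.3 CPM) among them.

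Values below are CPM in CRISPRi replicate 1, CRISPRi replicate 2, control replicate 1 and control replicate 2, in that order. The eIF2alpha kinases come first in the response. EIF2AK1 (HRI), which responds to haem shortage and mitochondrial stress, was at 176, 171, 173 and 169 CPM. EIF2AK4 (GCN2), which responds to uncharged tRNA, was at 44.0, 44.4, 40.2 and 42.5 CPM. EIF2AK3 (PERK), the ER kinase, was at 59.0, 58.7, 48.7 and 59.2 CPM. In these 3 genes the deep libraries nearly coincide, and the interval of control replicate 1 (35.6 to 64.9 CPM for EIF2AK3) covers them. EIF2AK2 (PKR), which responds to double-stranded RNA, was at 49.6, 47.3, 65.6 and 47.2 CPM, high in control replicate 1 only (interval 50.3 to 84.1 CPM). The log2 fold changes with the smallest p in this branch were 0.08 for EIF2AK4 (SE 0.09, adjusted p = 1) and -0.08 for EIF2AK2 (SE 0.14, adjusted p = 1). Against control replicates 1 and 2 alone they were 0.17 and 0.06 for EIF2AK4 and -0.41 and 0.04 for EIF2AK2, which was at -0.18 without CRISPRi replicate 1. The branch median was 0.05, or 0.04 against control replicate 2 and 0.10 against control replicate 1.

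Of the ER stress sensors, ERN1 (IRE1), the kinase and nuclease that splices XBP1 mRNA, was at 7.14, 7.17, 9.52 and 7.12 CPM. ATF6, a membrane-bound factor that is cleaved in the Golgi upon stress, was at 67.1, 72.0, 47.6 and 69.1 CPM. Its relative ATF6B was at 63.4, 80.3, 82.5 and 80.5 CPM. ATF6 was thus low in control replicate 1 (interval 34.7 to 63.7 CPM), and ATF6B low in CRISPRi replicate 1, with the other 3 libraries alike. Their log2 fold changes were 0.14 for ATF6 (SE 0.15, adjusted p = 1) and -0.16 for ATF6B (SE 0.14, adjusted p = 1), and that of ATF6B was 0.0017 without CRISPRi replicate 1. For ATF6 the value was 0.01 against control replicate 2, 0.58 against control replicate 1 and 0.25 without CRISPRi replicate 1. ATF6B was listed only on an alternate contig in the deposited files, as were SESN2 (alternate), CANX and HYOU1 (fix contigs).

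**Figure D3:**
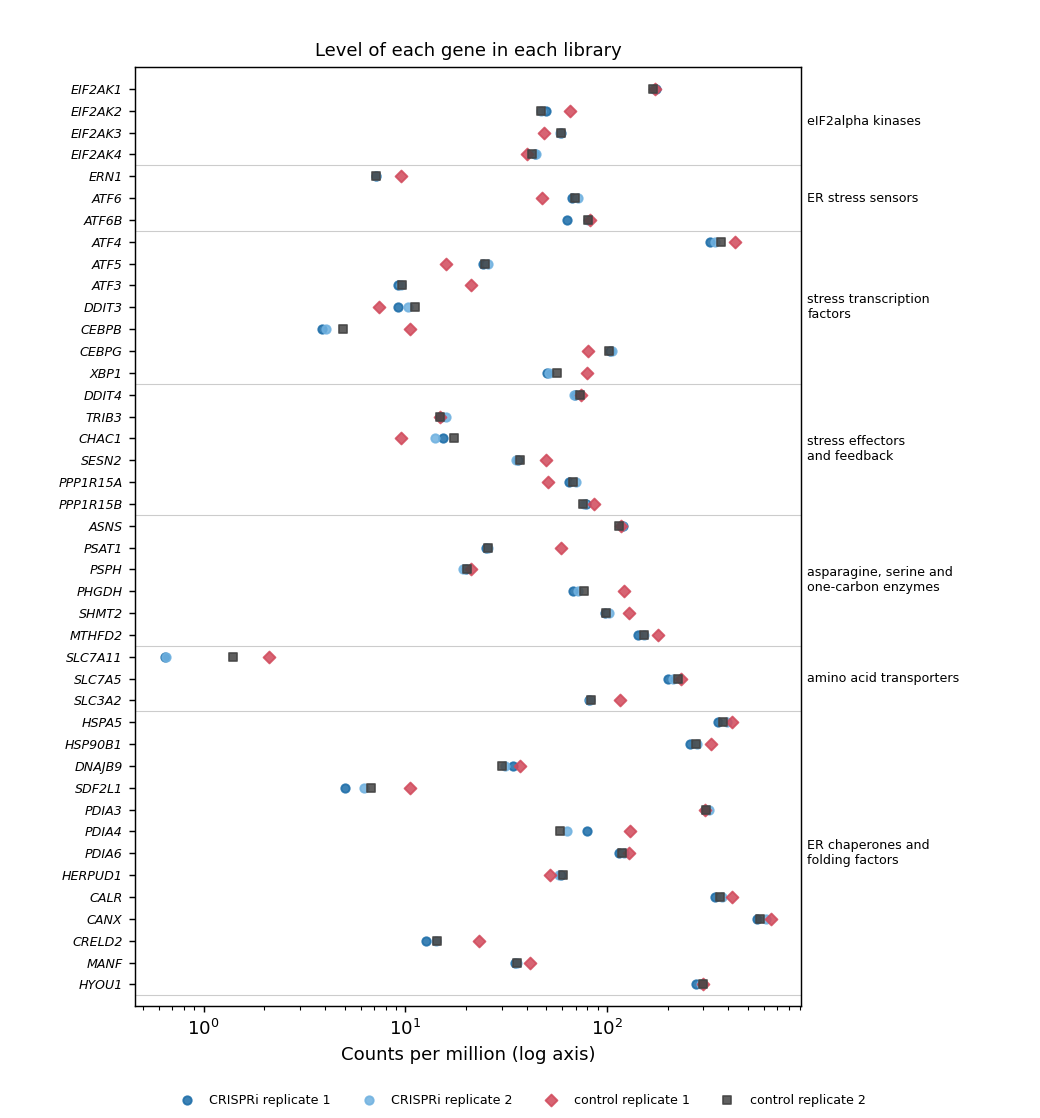
CPM of the 42 genes in the 4 libraries on a log axis, grouped by branch; each symbol is 1 library. CRISPRi replicates (blue circles) and control replicate 2 (dark squares) mostly coincide, whereas control replicate 1 (red diamonds) stands apart for genes such as PSAT1, ATF3 and CEBPB; SLC7A11, at 0.647 to 2.12 CPM, is the lowest gene.

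Among the stress transcription factors, ATF4, the central activator of the integrated stress response, had the smallest p. It was at 323, 345, 433 and 366 CPM (chromosome 22, 39520559 to 39522686), a mean of 334 ± 15.3 CPM in CRISPRi and 399 ± 47.5 CPM in controls (SD, n = 2 each). Both CRISPRi libraries lay below both controls, and control replicate 1 was the highest. The log2 fold change was -0.23 (SE 0.10, 95% confidence interval -0.48 to 0.02, unadjusted p = 0.0689, adjusted p = 1). It was -0.13 against control replicate 2 (adjusted p = 0.98) and -0.34 against control replicate 1 (adjusted p = 0.0204). Since ATF4 is controlled mostly at translation, its mRNA level does not measure ATF4 protein.

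XBP1, whose spliced form activates chaperone and ER-associated degradation genes, was at 50.2, 51.8, 79.4 and 56.2 CPM. The groups did not overlap, with control replicate 2 only slightly above CRISPRi and control replicate 1 far above (interval 62.4 to 99.5 CPM). Its log2 fold change was -0.27 (SE 0.15, adjusted p = 1), -0.13 against control replicate 2 and -0.61 against control replicate 1 (adjusted p = 0.0161). ATF3, a stress-induced factor that can repress its targets, was at 9.23, 9.48, 21.2 and 9.59 CPM. CEBPB, a partner of ATF4, was at 3.88, 4.04, 10.6 and 4.93 CPM. Both stood high in control replicate 1, from 20 and 10 counts, with ratios of 2.26 (interval 1.38 to 3.52) for ATF3 and 2.67 (1.27 to 4.98) for CEBPB over the pooled CRISPRi counts.

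Control replicate 2 was at 1.25 times pooled CRISPRi for CEBPB, with a fitted log2 fold change of -0.31 (adjusted p = 0.98), and at 1.02 times for ATF3. ATF3 had a log2 fold change of -0.33 with all libraries, -0.03 against control replicate 2 and -1.15 against control replicate 1 (adjusted p = 0.0287). The remaining factors lay lower in control replicate 1. CEBPG, a dimerisation partner of ATF4, was at 104, 105, 80.4 and 102 CPM. ATF5, a translationally controlled relative of ATF4, was at 24.4, 25.8, 15.9 and 24.8 CPM. DDIT3 (CHOP), an ATF4 target linked to cell death, was at 9.17, 10.3, 7.41 and 11.2 CPM. The interval of control replicate 1 covered or touched the deep libraries for ATF5 and DDIT3, the latter from 7 counts. So the branch was split against control replicate 1, with fitted log2 fold changes from -1.39 (CEBPB) to 0.69 (ATF5) and a median of -0.34, and 3 of 7 called lower, beside 4.97% of tested genes. Against control replicate 2 they ran from -0.31 to 0.04 with a median of -0.13, and 0 of 7 were called. DDIT3 lies opposite MARS1, which had 202 to 8350 counts per library, and ATF5 opposite NUP62; no source used here states a strand setting, so their counts are uncertain.

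The effectors and feedback genes gave a branch median near 0 against either control. DDIT4 (REDD1), an inhibitor of mTORC1, was at 69.6, 68.7, 74.1 and 73.6 CPM. TRIB3, a pseudokinase that restrains ATF4, was at 15.1, 15.9, 14.8 and 14.8 CPM. PPP1R15B (CReP), the constitutive eIF2alpha phosphatase subunit, was at 78.5, 76.8, 85.7 and 75.9 CPM. For DDIT4 the 2 controls differed by 0.01 and for TRIB3 by 0.00 on the log2 scale, so that CRISPRi compared alike with either. PPP1R15A (GADD34), the stress-induced phosphatase subunit, was at 65.0, 69.9, 50.8 and 67.9 CPM. SESN2, a leucine sensor that inhibits mTORC1, was at 36.3, 35.3, 49.7 and 37.2 CPM. CHAC1, a glutathione-degrading enzyme and ATF4 target, was at 15.4, 14, 9.52 and 17.5 CPM. CHAC1 lay between its controls, from 9 counts in control replicate 1, and its unadjusted p against control replicate 2 was 0.0411 (log2 fold change -0.25, adjusted p = 0.98). The smallest p in the 4-library fit belonged to SESN2 (log2 fold change -0.15, SE 0.13, adjusted p = 1) and DDIT4 (-0.08, SE 0.07, adjusted p = 1). Without control replicate 1 SESN2 was at -0.05, without control replicate 2 at -0.44 and without CRISPRi replicate 1 at -0.23, while DDIT4 ran from -0.09 to -0.07 with any library left out. The branch median was -0.04, with 0.01 against control replicate 1 and -0.03 against control replicate 2.

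Of the enzymes for asparagine, serine and folate one-carbon units, PHGDH and PSAT1 catalyse the opening steps of serine synthesis. PHGDH was at 68.1, 72.2, 122 and 77.1 CPM (chromosome 1, 119711934 to 119744215), and the CRISPRi libraries lay below both controls. Its log2 fold change was -0.35 (SE 0.19, adjusted p = 1), with -0.13 against control replicate 2 and -0.76 against control replicate 1 (adjusted p = 0.00484). PSAT1 was at 25.1, 25.8, 59.3 and 25.8 CPM (chromosome 9, 78297125 to 78330093). In PSAT1 the deep libraries coincided and control replicate 1 alone was high, from 56 counts, at 2.33 times pooled CRISPRi (1.75 to 3.04). The fitted values were -0.40 with all libraries (SE 0.35, adjusted p = 1), -0.01 against control replicate 2 and -1.19 against control replicate 1 (adjusted p = 0.00314).

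PSPH, the last enzyme of serine synthesis, was at 19.98, 19.4, 21.2 and 20.1 CPM, and did not share the high value of control replicate 1. SHMT2, the mitochondrial serine hydroxymethyltransferase, was at 97.3, 102, 128 and 98.9 CPM. MTHFD2, a mitochondrial folate enzyme, was at 142, 153, 179 and 153 CPM (log2 fold change -0.13, SE 0.10, adjusted p = 1). Its fold change was -0.05 against control replicate 2, -0.25 against control replicate 1, -0.08 without CRISPRi replicate 1 and -0.20 without CRISPRi replicate 2. ASNS, asparagine synthetase and a standard readout of ATF4 activity, was at 120, 118, 117 and 115 CPM, with the deep libraries within 1.04-fold of each other. The overlapping same-strand symbol CZ1P-ASNS had 42, 52, 1 and 135 counts in the same order of libraries. No source used here states how reads shared with ASNS were counted. For ASNS and PSPH the interval of control replicate 1 covered the deep libraries, which it did not for PSAT1 and PHGDH. The branch median was -0.11, with 2 of 6 called lower against control replicate 1 (4.97% of tested genes, branch median -0.29 beside 0.09 over the tested genes) and 0 of 6 against control replicate 2 (median -0.02).

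SLC7A11 (xCT), which imports cystine in exchange for glutamate, had the largest fold change of the 42 genes and the largest ratio between deep libraries, 2.16. Its counts were 29 and 27 with CRISPRi, 2 in control replicate 1 and 55 in control replicate 2, or 0.647, 0.650, 2.12 and 1.399 CPM (chromosome 4, 138164097 to 138242349). Both CRISPRi libraries lay below both controls. The mean was 0.648 ± 0.00206 CPM in CRISPRi and 1.76 ± 0.508 CPM in controls (SD, n = 2 each). With counts this low, these SDs do not measure the counting error of the libraries. Control replicate 2 was at 2.16 times pooled CRISPRi, with an exact counting interval of 1.46 to 3.19, and control replicate 1 at 3.26 times, with an interval of 0.386 to 12.4 from its 2 counts. The log2 fold change was -1.20 (SE 0.49, 95% confidence interval -2.41 to 0.02, unadjusted p = 0.0525, adjusted p = 1). Against control replicate 2 alone it was -1.10 (unadjusted p = 0.0141, adjusted p = 0.816), and against control replicate 1 alone -1.67 (adjusted p = 0.451). The opposite-strand gene SLC7A11-AS1 had 0 to 6 counts per library.

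SLC3A2 (CD98 heavy chain), the partner subunit of both SLC7A11 and SLC7A5, was at 81.5, 82.5, 115 and 83.6 CPM. SLC7A5 (LAT1), a transporter of large neutral amino acids, was at 201, 212, 233 and 224 CPM. SLC3A2 was high in control replicate 1 only, whereas SLC7A5 differed little between its controls and lay slightly below both in CRISPRi. Log2 fold changes were -0.17 for SLC3A2 and -0.13 for SLC7A5 (SE 0.08, adjusted p = 1), and against control replicate 1 SLC3A2 was at -0.46 (adjusted p = 0.0267). All 3 transporters had both CRISPRi libraries below both controls, as 16.5% of tested genes did, by a narrow gap in SLC3A2 (82.5 against 83.6 CPM).

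The ER chaperones and folding factors were the most abundant branch, with sums of 2433, 2596, 2831 and 2520 CPM in the same order of libraries. Their median log2 fold change was -0.06, or -0.01 against control replicate 2 and -0.15 against control replicate 1, and 0 of 13 were called in any of these. HSPA5 (BiP), the main ER Hsp70 and master brake on the sensors, was at 355, 392, 415 and 374 CPM. HSP90B1 (GRP94), the ER Hsp90, was at 259, 279, 326 and 277 CPM. The lectin chaperones CALR and CANX were at 345, 373, 416 and 364 CPM and at 553, 611, 647 and 570 CPM. HYOU1 (GRP170), an exchange factor for BiP, was at 277, 294, 300 and 300.4 CPM. In these 5 genes CRISPRi replicate 1 was the lowest library, and control replicate 1 the highest except in HYOU1, where the controls were level. The interval of control replicate 1 cleared the deep libraries for HSP90B1 (290.5 to 364 CPM) and CALR (376 to 459 CPM).

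The disulphide isomerases differed among themselves. PDIA3, which works with the lectin chaperones, was at 306, 319, 305 and 310.3 CPM, and PDIA6 at 115, 121, 129 and 118 CPM. PDIA4 was at 79.6, 63.0, 130 and 58.8 CPM. PDIA4 was spread within both groups, with a ratio of 1.35 between the deep libraries and with both CRISPRi libraries above control replicate 2 and below control replicate 1. Its log2 fold change was -0.12 (SE 0.38), and it turned from -0.84 against control replicate 1 to 0.28 against control replicate 2. PDIA3 had a related pseudogene symbol, PDIA3P1, with 10 to 648 counts per library, and no source used here states how reads shared by the pair were counted.

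Co-chaperones and secreted ER factors were lower in abundance. DNAJB9 (ERdj4), a BiP co-chaperone that also regulates IRE1, was at 34.2, 31.3, 37.0 and 30.2 CPM. SDF2L1, a component of BiP complexes, was at 5.00, 6.23, 10.6 and 6.74 CPM. CRELD2, a secreted ER protein, was at 12.6, 14.2, 23.3 and 14.3 CPM. CRELD2 and SDF2L1 had both CRISPRi libraries below both controls, as 16.5% of tested genes did. Their highest value was in control replicate 1, from 22 and 10 counts. For CRELD2 the gap between CRISPRi replicate 2 and control replicate 2 was narrow (14.24 against 14.29 CPM). MANF, a secreted neurotrophic factor retained in the ER, was at 34.97, 35.7, 41.3 and 35.7 CPM. HERPUD1, a membrane protein of ER-associated degradation, was at 58.8, 58.1, 51.9 and 60.4 CPM. These 2 had intervals in control replicate 1 that covered the deep libraries. The smallest p in the branch belonged to SDF2L1 (log2 fold change -0.41, SE 0.30, adjusted p = 1) and HSP90B1 (-0.13, SE 0.10, adjusted p = 1). For SDF2L1 the value was -0.26 against control replicate 2, -0.89 against control replicate 1 and -0.70 without CRISPRi replicate 2. For HSP90B1 it was -0.04 against control replicate 2, -0.25 against control replicate 1 and -0.08 without CRISPRi replicate 1.

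Set beside the promoter motifs, the 7 genes with the ER stress response element had fitted log2 fold changes from -0.27 to -0.03 with all libraries, from -0.13 to 0.03 against control replicate 2 and from -0.76 to -0.10 against control replicate 1. In 4 of the 7, CALR, CRELD2, HSP90B1 and XBP1, the interval of control replicate 1 lay above the deep libraries. It did so for 13 of the 42 members (31%) and for 9.54% of tested genes. The 3 genes with ER stress response element II had 0 such cases. Of these, SDF2L1 had 10 and HERPUD1 49 counts in control replicate 1, so their intervals were wide. HYOU1 had 283 counts there, and its narrower interval (265.6 to 336.5 CPM) covered the deep libraries. Of the 6 genes with the C/EBP-ATF response element, ATF3 lay above and CEBPG below, and the fitted values against control replicate 1 ran from -1.15 to 0.65. These are counts over few genes and carry no test.

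Between genes, levels were compared as CPM per kilobase of exonic sequence (union of GENCODE release 29 exons), a scale on which long rarely used exons lower the value. ATF4 led with 129, 137, 172 and 146 CPM per kb, and CALR followed with 127, 137, 153 and 134. The order of these 2 differed between libraries. HSPA5 (90.8 to 106 CPM per kb) and CANX (88.6 to 104) came next and overlapped, then PDIA3 (71.9 to 75.3). At the other end stood CEBPB (1.98 to 5.41), ERN1 (0.655 to 0.877) and SLC7A11 (0.0671 to 0.219 CPM per kb). ATF3 (2.29 to 5.24) and CEBPB overlapped, while ERN1 and SLC7A11 did not.

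Beyond the 42, 113 other genes of these pathways in 8 lists were examined, of which 110 were tested. None passed in the 4-library fit (edgeR 0 higher and 0 lower, beside 0% and 0.0255% of tested genes). An unadjusted p under 0.05 was seen for 1, and the median log2 fold change was -0.03. The eIF2 and eIF2B subunits had a median of -0.01 over 8 genes, led by EIF2S3 (log2 fold change -0.16). Aminoacyl-tRNA synthetases, many of them ATF4 targets, had -0.08 over 13 genes, led by AARS1 (-0.14). The 22 tested ATF4 targets of the wider list had a median of -0.08. Their smallest p was that of PYCR1, a proline synthesis enzyme, at 60.1, 60.8, 102 and 70.5 CPM (log2 fold change -0.37, SE 0.15, unadjusted p = 0.0504, adjusted p = 1). ER-associated degradation had a median of 0.03 over 13 genes (SYVN1, its ubiquitin ligase, at -0.13), and ER translocation, oxidation and folding 0.02 over 22 genes (WFS1 -0.15). ATF6 and CREB3 family processing stood at -0.04 over 8 genes (CREB3L2 -0.15).

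Against control replicate 1 alone, the median log2 fold change of the 110 was -0.13, beside 0.09 over all tested genes. Of the 110, 63 were below 0, as were 41.4% of tested genes. CBS stood at 1.23, TXNDC5 at 1.97 and EDEM2, with 0 counts in that library, at 11.1. Among the 22 wider ATF4 targets the median was -0.18, and 13 were below 0. The 7 lowest ran from -4.94 (STC2) to -0.64 (EIF4EBP1). Between them lay SLC1A5, PYCR1, ALDH18A1, SHMT1 and MTHFD1L, named after their values were seen. The amino acid transporter SLC1A5 was at 12.2, 12.7, 65.6 and 12.99 CPM, and the secreted glycoprotein STC2 at 0.691, 0.650, 21.2 and 0.814 CPM, from 20 counts in control replicate 1. The folate enzyme MTHFD1L was at 30.8, 30.4, 62.4 and 33.6 CPM. In each of these 3 the deep libraries lay together and control replicate 1 stood above them. FGF21 had 0 counts in every library, and NUPR1 0 to 7. Against control replicate 2 alone the median of these 22 was -0.08, beside -0.0005 over all tested genes. Of the 22, 18 were then below 0, as were 50.1% of tested genes.

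**Figure D4:**
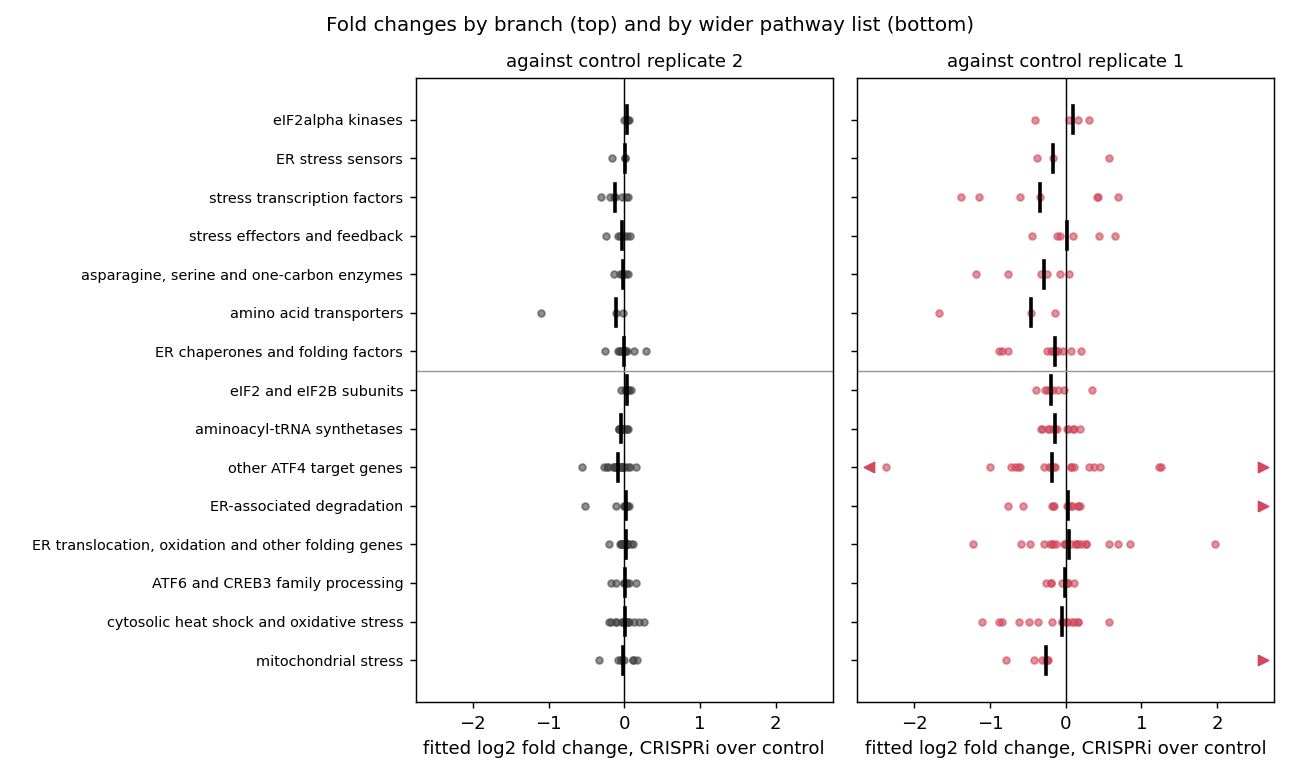
Fitted log2 fold changes of CRISPRi over control replicate 2 (left) and over control replicate 1 (right), 1 point per tested gene, for the 7 branches above the line and the 8 wider lists below it; black bars are medians and arrowheads mark values beyond the axis. The left points gather at 0, with medians from -0.13 to 0.04, while the right ones spread, with medians from -0.46 to 0.10.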

How the data were processed

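The authors deposited, for each of the 4 libraries, a table of whole-number read counts per gene; hg38, edgeR and limma are named per the submitters' processing notes, and which aligner, counter or strand option was used is not given in the sources used here. Per the labels' protocols the libraries were paired-end, 75 bp, from polyA RNA and biologically independent, all of 1 cell line, so p-values measure the spread between these libraries. The deposited counts were summed per symbol over all contigs and scaled to CPM.

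Groups were compared with edgeR 4.0.16 (R 4.3.3): genes were kept by filterByExpr, scaled by TMM, and tested by a robust quasi-likelihood fit with group as the only term. Benjamini-Hochberg p-values over 15708 genes were called under 0.05. TMM factors were 0.992 to 1.01. Standard errors and 95% confidence intervals derive from the F statistic; for 5 members (ATF5, EIF2AK3, ERN1, MANF, PDIA6) edgeR raised p to a Poisson bound. An exact permutation test of 2 against 2 cannot go below p = 0.333 and was not run. No pair of libraries agreed within sampling noise (chi-square per degree of freedom 7.66 to 14.9).

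Members and lists were chosen with earlier results of these data known. Every member's CPM is given; fold changes with SE are given for the 2 members of smallest p per branch, fold changes also for others called against 1 control, and the gene of smallest p is named in each wider list. Alternatives were DESeq2 1.42.0, limma-voom (limma 3.58.1), scaling by median of ratios or by total counts, omitting the filter or asking for 1 CPM in 2 libraries, a replicate block, and leaving each library out. Promoters are RefSeq's, GRCh38.p14.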

Additional observations from a re-analysis of the deposited data

How the results depend on the processing

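The 0 members called higher held under all 11 alternatives, and the 0 called lower under 10; without control replicate 2 it became 6 (range 0 to 6 with a library left out). Over all genes, 0 higher became 1 by DESeq2, 17 when the replicate block was added, and 2 to 580 on leaving a library out, and 4 lower became 25 with the replicate block, 12 by DESeq2, 2 by limma-voom and 15 to 798 on leaving a library out. The label numbers are not stated to pair libraries; deviations of same-numbered libraries correlated at -0.03 over 15708 genes, and the block called no member. With a library left out, branch medians ran from -0.17 to 0.0125 for the ER sensors, -0.46 to -0.11 for the transporters, -0.29 to -0.0207 for the amino acid and folate enzymes, 0.0419 to 0.10 for the kinases and -0.0325 to 0.0144 for the effectors. For the stress transcription factors the median ran from -0.34 to -0.13, and for the ER chaperones and folding factors from -0.15 to -0.0075. The effector median became -0.0551 with total-count scaling. Of 462 member values so recomputed, 428 kept their sign and their call, 6 gained a call (all without control replicate 2) and 28 turned sign, none of them a called value. With a library left out the turning genes ran from -0.35 to 0.0017 for ATF6B, -0.12 to 0.0345 for CANX, -0.25 to 0.65 for CHAC1, -0.19 to 0.43 for DDIT3, -0.15 to 0.12 for DNAJB9, -0.41 to 0.0429 for EIF2AK2, -0.0015 to 0.30 for EIF2AK3, -0.38 to 0.0125 for ERN1, -0.0421 to 0.20 for HERPUD1, -0.13 to 0.0150 for HSPA5, -0.84 to 0.28 for PDIA4, -0.10 to 0.0075 for PDIA6, -0.0031 to 0.44 for PPP1R15A, -0.11 to 0.0391 for PPP1R15B and -0.33 to 0.0196 for SHMT2. Other sign turns were CHAC1 (0.0106 with DESeq2, 0.0323 with the replicate block), DDIT3 (0.0462 with the replicate block), and with limma-voom EIF2AK2 (0.0219), HERPUD1 (-0.0317), PDIA4 (0.21) and PPP1R15B (0.0304). The cause was not tested. Control replicate 1 limits low genes: 3 counts there equal 3.17 CPM, and 4 members had under 10 counts.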

Other observations

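Stress systems outside the ER and ATF4 branches were listed as well. The mitochondrial list (8 genes) held YME1L1, a protease of the inner mitochondrial membrane, which was at 104, 105, 128 and 132 CPM, in the order of libraries used above. Both CRISPRi libraries lay below both controls, which were level with each other. Its log2 fold change was -0.31 (SE 0.07, unadjusted p = 0.00516, adjusted p = 1 by edgeR), and it passed against control replicate 2 alone (-0.33, adjusted p = 0.0318) but not against control replicate 1 alone (-0.26, adjusted p = 0.239). It was the only 1 of the 110 wider pathway genes with an unadjusted p under 0.05 in the 4-library fit. Over all tested genes, 0.547% had such a p in the higher and 0.414% in the lower direction. The 1 of 110 is therefore near the share over all genes. The mitochondrial chaperone HSPD1 was at 245, 251, 437 and 231 CPM.

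Cytosolic heat shock and oxidative stress genes (16 tested) had a median log2 fold change of -0.05, with 0 called by edgeR in the 4-library fit and 0 at an unadjusted p under 0.05. The smallest p was that of HSP90AA1, an inducible cytosolic Hsp90, at 1835, 1433, 1496 and 1372 CPM, high in CRISPRi replicate 1 only. HSPA1A and HSPA1B, near-identical stress-inducible Hsp70 genes whose reads cannot be told apart with certainty, were at 165, 159, 254 and 158 CPM and at 147, 137, 312 and 137 CPM. Both were high in control replicate 1 and level in the deep libraries.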
